A study of Mus musculus with 56 samples.

Results

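The 30 genes described here are markers of astrocytes, chosen by name as genes enriched in these cells, and all 30 were found among the 18088 genes of the deposited table. All 30 passed the filter on low values, and the lowest library total for any of them was 76 reads, for Agt. RNA was measured by sequencing in the prefrontal cortex of C57BL/6J mice collected on postnatal day 25. The mice were heterozygous for a mutation of Scn2a, which encodes a neuronal sodium channel (HT), or were wild type (WT). They had received lithium, fluoxetine or vehicle for 3 weeks, from postnatal day 3 to day 24, through the milk of their mothers. There were 10 HT lithium, 9 HT fluoxetine, 10 HT vehicle, 9 WT lithium, 9 WT fluoxetine and 9 WT vehicle libraries, of both sexes, in 12 groups of 4 or 5. The kind of Scn2a allele, the doses and the litters are not given in the sources used here. Pups that shared a mother may be in one group, so the p-values measure the spread between these libraries.

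Astrocytes clear glutamate and GABA from the synaptic cleft, turn glutamate into glutamine, and handle potassium, water and bicarbonate at their endfeet on blood vessels. They are joined by gap junctions and pass metabolites to neurons. In the rodent cortex they mature during the weeks after birth, when glutamate transporters and connexins reach their adult levels. In bulk tissue, fewer astrocytes and less astrocyte RNA per cell cannot be told apart.

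Scn2a was at 8554 ± 423 normalised reads in HT (SD, n = 29) and at 12311 ± 780 in WT (SD, n = 27), and the highest HT library (9619) lay under the lowest WT library (9727). The library totals were 24253955 to 36385936 reads. Cortical neuron markers were present throughout, with Slc17a7 at 45151 to 59615 and Tbr1 at 3146 to 4484 normalised reads in all 56 libraries. Some libraries also held transcripts of neighbouring regions. A score, the mean log2 value of 17 olfactory bulb markers or of 15 striatal markers relative to the median library, exceeded 1 in 20 libraries, of which 7 were lithium, 6 fluoxetine and 7 vehicle. Counts of members called are given with and without these libraries, as are those of most other lists. For astrocyte transcription factors and synapse-shaping genes they are given only with them.

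The members covered a wide range of levels. Per kilobase of exon, the most abundant was Glul, the glutamine synthetase, at 13492 ± 794 normalised reads (SD, n = 56). The glutamate transporter Slc1a2 followed at 7592 ± 638, ahead of the glycolytic enzyme Aldoc at 6163 ± 427 and the secreted chaperone Clu at 5273 ± 280. Ndrg2, a cytoplasmic protein used as an astrocyte marker, was at 4060 ± 463 and the other glutamate transporter, Slc1a3, at 2277 ± 169. The calcium-binding protein S100b (1536 ± 119), the endfoot membrane protein Mlc1 (1242 ± 95.3) and the intermediate filament Gfap (854 ± 124) were in the middle. At the low end were the transcription factor Sox9 (145 ± 21), Cbs of cysteine synthesis (109 ± 13.3), the synapse-maturing secreted protein Chrdl1 (109 ± 15.2), Agt, the angiotensin precursor (79.7 ± 28.4), and the peptide transporter Slc15a2 (71 ± 7.49). Among the 6 most abundant genes, from Glul to Slc1a3, each gap between neighbours exceeded the SD of either gene, whereas the means of Cbs and Chrdl1 lay within their SD of each other. Exon lengths include rare isoforms, which lowers the level of genes that have them.

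**Figure D1:**
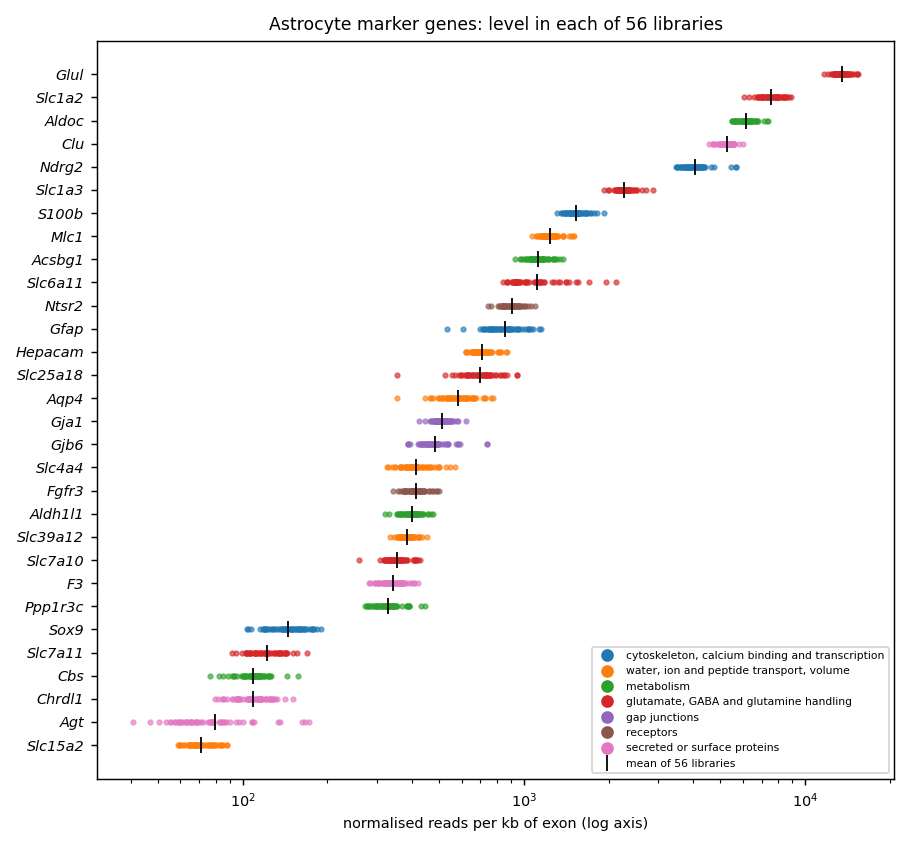
Level of the 30 astrocyte genes in each of 56 libraries, in normalised reads per kilobase of exon on a log axis. Each point is 1 library, black bars are means and colours mark the role of the gene. Glul leads at a mean of 13492, and Agt spreads the most.

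How far a member varied differed between genes. The highest library was 1.32 times the lowest for Glul and for Clu. It was 4.24 times the lowest for Agt, 2.67 times for Slc25a18, a mitochondrial glutamate carrier, and 2.52 times for the GABA transporter Slc6a11. Gfap and the water channel Aqp4 spanned 2.16 and 2.19 times. The lows of Slc25a18 (677), Gfap (2249) and Aqp4 (2213) were all those of HT lithium female 4. The next lowest libraries had 999.97, 2554 and 2779.95 normalised reads. HT lithium female 4 also held the lows of Agt (77), Slc7a10 (545), Cbs (573) and Slc15a2 (433). It held the highs of Ndrg2 (19360) and F3 (1063) as well. It is not a high-score library, so it stays in the fits without those. Summed over the 30 members, the normalised reads were 267152 ± 10604 in lithium (SD, n = 19), 269538 ± 12497 in fluoxetine (n = 18) and 270914 ± 20331 in vehicle libraries (n = 19), and the ranges overlapped. Slc1a2 and Glul, with means of 99707 and 44834 over all libraries, weighed most in this sum, and the low genes hardly at all.

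Over both genotypes, lithium changed 4 of the 30 members. S100b, Mlc1 and Slc7a11 were lower in lithium libraries, and the gap junction gene Gjb6 was higher, each by 6.77% to 12.2%. The share of members called was 13.3%, against 16.2% of all 17778 genes tested, a share near that of genes in general. One member was higher, where 9.31% of all genes were, and 3 were lower, where 6.85% were. The median log2 difference over the 30 members was -0.02, against 0.00 over all genes.

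S100b, a calcium-binding protein that astrocytes also secrete, had normalised reads of 1943 at the lowest, 2172 at the median and 2547 at the highest in the 19 lithium libraries. The 19 vehicle libraries had 2025, 2320.5 and 2851. The ranges overlapped, but 18 of 19 lithium libraries lay under the vehicle mean. This and the like counts use the fitted mean, taken over log2 values with each genotype and sex group weighted equally. A library close to it can fall on the other side of the arithmetic mean. The fitted mean joins the sexes, so such a count also holds any difference between them. S100b averaged 2469 in vehicle females and 2219 in vehicle males, against 2195 in lithium females and 2165 in lithium males. The log2 difference was -0.10 ± 0.029 (SE, limma with Benjamini-Hochberg adjustment, adjusted p = 0.0122).

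Mlc1, a membrane protein of the endfeet that controls volume regulation and is mutated in a human white matter disease, had 2987, 3313 and 3683 normalised reads in lithium libraries (lowest, median, highest). In vehicle libraries these were 3148, 3515 and 4181. The groups overlapped, with 17 of 19 lithium libraries under the vehicle mean. The log2 difference was -0.11 ± 0.0316 (limma, adjusted p = 0.0139).

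Slc7a11, the exchanger that brings in cystine for glutathione and releases glutamate, had 1278, 1552 and 1991 normalised reads in lithium libraries. Vehicle libraries had 1382, 1809.8 and 2357. Of the lithium libraries, 15 of 19 lay under the vehicle mean, and the ranges overlapped. The log2 difference was -0.18 ± 0.0532 (limma, adjusted p = 0.0135).

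Gjb6, a connexin of astrocyte gap junctions, had 1179, 1309.5 and 1980.4 normalised reads in lithium libraries. Vehicle libraries had 1034, 1209.5 and 1330.2. All but 1 of the lithium libraries were above the vehicle mean (18 of 19), although the median lithium library lay within the vehicle range. The log2 difference was 0.17 ± 0.0519 (limma, adjusted p = 0.0216).

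**Figure D2:**
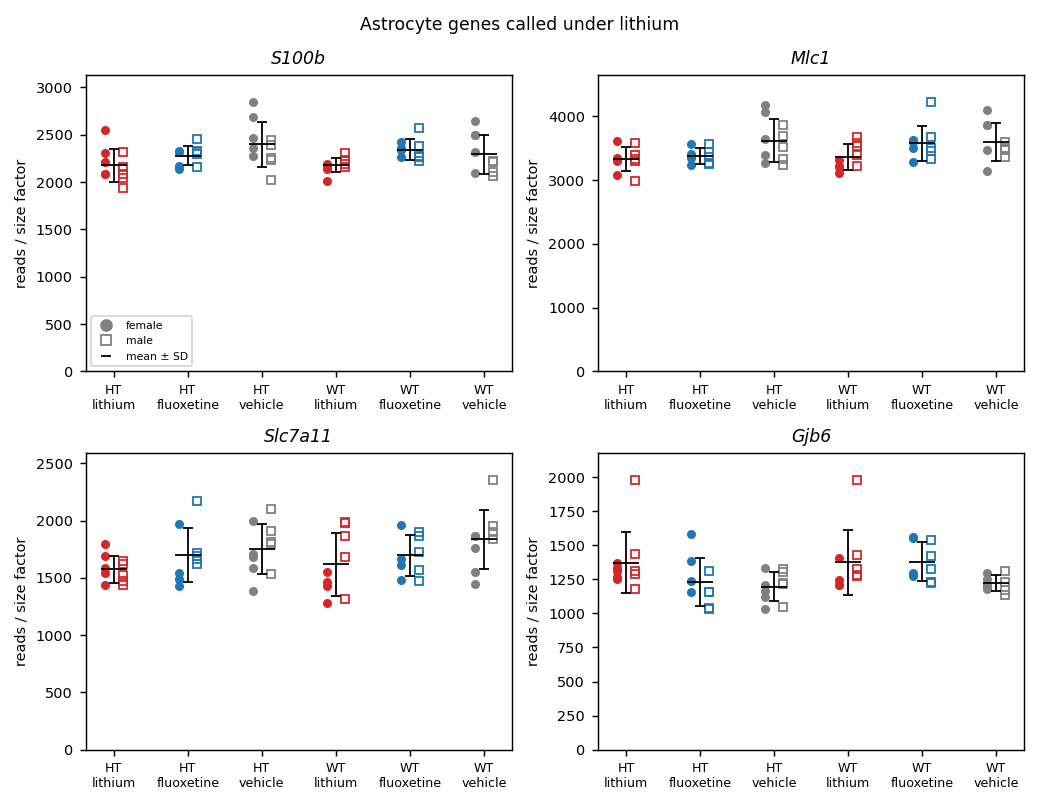
Normalised reads (reads divided by the size factor) of S100b, Mlc1, Slc7a11 and Gjb6 by genotype and treatment. Each point is 1 library, filled circles are females and open squares males, and bars are the mean ± SD of the group. Vehicle libraries reach higher than lithium libraries for S100b and Mlc1, and 1 male library in each lithium group stands high for Gjb6, at 1979 in HT and 1980.4 in WT.

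The promoters of these 4 genes are shown because they are the members called under lithium and 1 of them moved the other way. Each window runs from 250 bases before to 50 bases after the annotated start, 5′ to 3′ on the strand of the gene, from RefSeq on GRCm38.p6. Capitals mark matches to the motifs searched on both strands. S100b lies at chr10:76253853-76261159, Mlc1 at chr15:88955884-88979007, Slc7a11 at chr3:49892526-50443614 and Gjb6 at chr14:57123303-57133611 (GRCm38, GENCODE vM21). The windows are chr10:76253586-76253885 on the plus strand for S100b and chr15:88978504-88978803 on the minus strand for Mlc1. They are chr3:50443564-50443863 on the minus strand for Slc7a11 and chr14:57133562-57133861 on the minus strand for Gjb6.
S100b: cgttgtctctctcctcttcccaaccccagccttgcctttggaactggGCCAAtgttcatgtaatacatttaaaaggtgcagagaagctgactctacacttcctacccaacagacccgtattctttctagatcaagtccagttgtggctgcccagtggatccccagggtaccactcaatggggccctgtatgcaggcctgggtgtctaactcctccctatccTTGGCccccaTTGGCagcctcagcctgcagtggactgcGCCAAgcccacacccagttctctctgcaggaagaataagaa
Mlc1: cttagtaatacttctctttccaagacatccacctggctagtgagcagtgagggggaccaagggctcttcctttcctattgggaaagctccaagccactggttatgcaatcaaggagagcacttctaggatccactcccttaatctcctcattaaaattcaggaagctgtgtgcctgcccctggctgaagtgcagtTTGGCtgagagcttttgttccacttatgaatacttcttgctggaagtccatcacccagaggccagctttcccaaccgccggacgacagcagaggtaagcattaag
Slc7a11: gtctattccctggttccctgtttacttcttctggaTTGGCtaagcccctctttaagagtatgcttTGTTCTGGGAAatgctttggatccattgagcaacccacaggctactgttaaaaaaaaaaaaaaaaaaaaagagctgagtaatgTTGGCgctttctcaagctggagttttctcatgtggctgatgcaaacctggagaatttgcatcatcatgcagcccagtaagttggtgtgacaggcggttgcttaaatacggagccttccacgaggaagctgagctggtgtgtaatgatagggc
Gjb6: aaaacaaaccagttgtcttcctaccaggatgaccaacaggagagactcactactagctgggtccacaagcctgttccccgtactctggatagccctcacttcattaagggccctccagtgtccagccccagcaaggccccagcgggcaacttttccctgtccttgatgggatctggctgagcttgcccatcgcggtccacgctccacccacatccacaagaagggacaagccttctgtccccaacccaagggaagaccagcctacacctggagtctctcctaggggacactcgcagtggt

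The motifs were TTGGC, part of the site of nuclear factor I, ACAAT of SOX factors, AGAACA, part of the site of the glucocorticoid receptor, CACGTG, the E-box, and TTCNNNGAA of STAT factors. A further motif, TGACNNNGC, the core of the antioxidant response element, was added after the values had been seen. S100b held 4 matches to TTGGC, starting at -203, -29, -19 and 10 from the start site, and Mlc1 held 1, at -55. Slc7a11 held TTGGC at -215 and -102. It also held TGTTCT, the reverse complement of AGAACA, at -185, which overlaps a STAT match, TTCTGGGAA, at -183. The Gjb6 window held none of the 6 motifs. Promoters were found in the table for 26 members, which leaves Aqp4, Sox9, Clu and Chrdl1. Among the 26, TTGGC was in 53.8%, against 50.4% of 27025 genes. ACAAT was in 19.2% of the members, against 34.4% of the genes, AGAACA in 15.4% against 21.3%, and CACGTG in 11.5% against 8.09%. TTCNNNGAA was in 7 of 26, or 26.9%, against 9.55% of the genes, and TGACNNNGC in 11.5% against 13.99%. These are counts of letters in the windows.

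The other astrocyte genes fixed for naming were not called for lithium over both genotypes. Gfap had 2249, 3464 and 4768 normalised reads in lithium libraries (lowest, median, highest), against 3029, 3733 and 4855 in vehicle libraries, a log2 difference of -0.10 ± 0.0673 (limma, adjusted p = 0.314). Aqp4 had 2213, 3440.2 and 4474 in lithium libraries, against 2779.95, 3805 and 4851.5 in vehicle libraries, with 17 of 19 lithium libraries under the vehicle mean (-0.16 ± 0.0623, limma, adjusted p = 0.0653). The groups of both genes overlapped over most of their range.

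The glutamate transporters had small differences. Slc1a2 had 83270.4, 97588 and 111943 normalised reads in lithium libraries, against 79353, 103660 and 116833 in vehicle libraries (log2 difference -0.05, 95% interval -0.12 to 0.03, limma, adjusted p = 0.399). Slc1a3 had 16403, 18989.9 and 22489 in lithium libraries, against 16939, 19661 and 24525 in vehicle libraries (-0.04, interval -0.10 to 0.03, limma, adjusted p = 0.509). In both genes the lithium values lay almost wholly inside the vehicle range. Glul, which uses the glutamate they take up, had a log2 difference of 0.03 ± 0.0255 (limma, adjusted p = 0.493).

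Gja1, the main connexin of astrocytes, had 4336, 5049.75 and 5686 normalised reads in lithium libraries, against 4744, 5377 and 5995 in vehicle libraries (-0.06 ± 0.0304, limma, adjusted p = 0.175). It thus leaned down where Gjb6 was higher. The log2 ratio of Gjb6 to Gja1, looked at after their values had been seen, averaged -1.91 ± 0.204 in lithium (SD, n = 19), -2.04 ± 0.192 in fluoxetine (n = 18) and -2.14 ± 0.0977 in vehicle libraries (n = 19). Aldh1l1, a folate enzyme widely used to mark astrocytes, had 1453, 1761 and 2108 in lithium libraries, against 1628, 1803 and 2148 in vehicle libraries (-0.04 ± 0.0298, limma, adjusted p = 0.324).

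By role, the glutamate and amino acid genes held 1 called member of 7, Slc7a11, with the amino acid transporter Slc7a10 next (-0.11 ± 0.0393, limma, adjusted p = 0.0542). Of the 6 genes of water, ion and peptide transport and volume only Mlc1 was called, while its binding partner Hepacam had a log2 difference of 0.04 ± 0.0354 (adjusted p = 0.507). None of the 5 metabolic genes was called, and Aldoc was nearest at 0.08 ± 0.0283 (adjusted p = 0.0567, higher than the vehicle mean in 16 of 19 lithium libraries). S100b was the member called among 4 genes of cytoskeleton, calcium binding and transcription. Neither receptor (Fgfr3, Ntsr2) was called, and of 4 secreted or surface proteins the tissue factor F3 came nearest at 0.09 ± 0.0381 (adjusted p = 0.0988).

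Without the 20 libraries of high olfactory or striatal score, 2 members were called for lithium over both genotypes, Gjb6 (0.20 ± 0.0587, limma, adjusted p = 0.0437) and Aldoc (0.10 ± 0.0302, adjusted p = 0.0383). The calls of S100b (-0.06, adjusted p = 0.346), Mlc1 (-0.08, adjusted p = 0.180) and Slc7a11 (-0.16, adjusted p = 0.102) were then lost, with 12 lithium and 12 vehicle libraries left. Leaving out WT lithium male 4 gave 7 calls, adding Aqp4, Aldoc and Slc7a10. The shares of all genes called in fits with libraries left out are not given, here or below. Whether members or lists lost or gained calls more than genes in general was therefore not tested.

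Within the genotypes, lithium called 1 of 30 members in HT, against 8.77% of all genes. This was S100b, with 1943, 2122 and 2547 normalised reads in 10 HT lithium libraries, against 2025, 2375 and 2851 in 10 HT vehicle libraries. The log2 difference was -0.14 ± 0.0398 (limma, adjusted p = 0.0227). It was lower than the vehicle mean in 9 of 10 libraries. The call was lost without the high-score libraries (-0.10, adjusted p = 0.282) and without HT lithium female 5, HT lithium male 3, HT vehicle female 3 or HT vehicle male 2 (adjusted p up to 0.0636). The count was 3 without HT lithium female 1 or HT vehicle male 4, and 2 without HT lithium male 1, HT lithium male 2, HT vehicle female 4, HT vehicle female 5 or WT fluoxetine male 5.

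In WT, limma called 0 of 30 members under lithium, against 5.71% of all genes, with 4 members at an unadjusted p under 0.05 and 0 called by voom, edgeR or DESeq2. Aldoc came nearest, above the vehicle mean in 9 of 9 libraries (0.12 ± 0.0411, limma, adjusted p = 0.0672), then Slc7a11 (-0.22 ± 0.0774, adjusted p = 0.0763). The count was 1 without HT lithium male 4, WT lithium male 4 or WT vehicle female 4. The difference between genotypes was tested by the interaction, which called 0 members and 0% of all genes with limma, and 0 members with voom, edgeR and DESeq2. One member had an unadjusted p under 0.05, Aldh1l1, whose lithium effect was -0.12 in HT and 0.03 in WT (interaction -0.14 ± 0.0595, limma, adjusted p = 0.389).

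None of the 30 members was called under fluoxetine. Over both genotypes limma called 0 of 30, against 0.928% of all genes, with 4 members at an unadjusted p under 0.05 and 0 called by voom, edgeR or DESeq2. Slc7a10 came nearest (-0.11 ± 0.0399, limma, adjusted p = 0.193), which was under the vehicle mean in 15 of 18 libraries. Both drug comparisons use the same vehicle libraries. For the members called under lithium, the fluoxetine libraries had 2141, 2316.4 and 2569 normalised reads of S100b (log2 difference to vehicle -0.02, limma, adjusted p = 0.875) and 3232, 3456 and 4234 of Mlc1 (-0.05, adjusted p = 0.525). They had 1431, 1668.5 and 2176 of Slc7a11 (-0.09, adjusted p = 0.479) and 1033, 1287 and 1583 of Gjb6 (0.11 ± 0.0526, adjusted p = 0.330). Sox9, the transcription factor that keeps astrocyte identity, had the most negative value, -0.17 ± 0.0682 (limma, adjusted p = 0.232).

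In HT, fluoxetine called 0 members (0.045% of all genes) with limma and 0 with voom, edgeR and DESeq2, and 3 had an unadjusted p under 0.05, led by Ppp1r3c, which targets a phosphatase to glycogen (-0.20 ± 0.0651, limma, adjusted p = 0.439). In WT it called 0 (0.146% of all genes) with the same tools, and 4 had an unadjusted p under 0.05, led by F3 (0.16 ± 0.0554, adjusted p = 0.216). The values were below 0 for 25 of 30 members in HT and above 0 for 21 of 30 in WT, where 50.4% of all genes were above 0 in HT and 51.3% in WT. The members partly varied together between libraries, so such signs, here and below, are not independent of each other. The interaction called 0 members and 0% of all genes with limma, 0 with voom, edgeR or DESeq2, and left 2 members at an unadjusted p under 0.05. F3 came nearest (-0.18 ± 0.0773, adjusted p = 0.878).

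**Figure D3:**
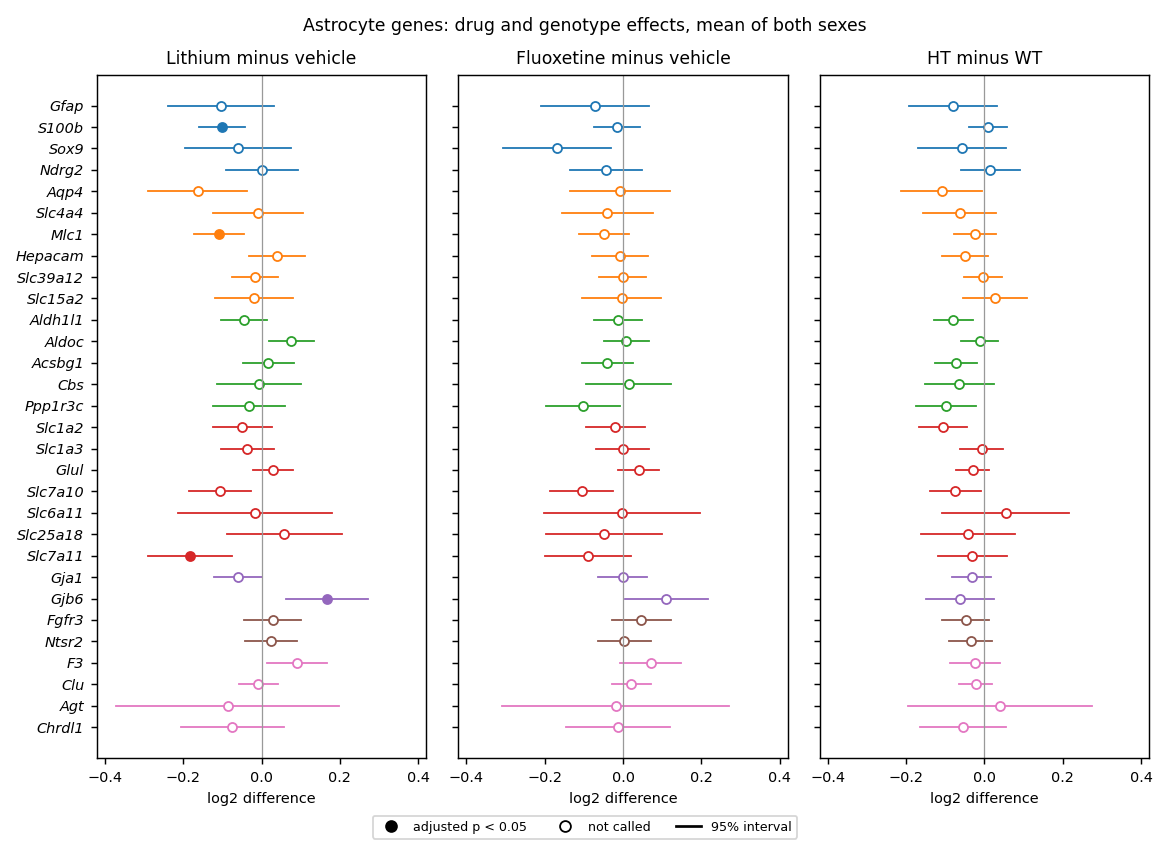
Log2 differences of the 30 astrocyte genes for lithium minus vehicle, fluoxetine minus vehicle and HT minus WT, averaged over the other factors. Points are estimates with 95% intervals, filled where the adjusted p was under 0.05, and colours mark the role of the gene. Filled points appear only for S100b, Mlc1, Slc7a11 and Gjb6 under lithium, and 25 of 30 members lie below 0 for HT minus WT.

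None of the 30 members was called between the genotypes. Over all treatments limma called 0 of 30 members, against 0.152% of all genes, and voom, edgeR and DESeq2 called 0. The values leaned down, with 25 of 30 below 0 and a median of -0.04, against 0.00 over all genes, and 6 members had an unadjusted p under 0.05. These signs are not independent, because the members partly varied together. Slc1a2 had 79353, 95215 and 114831 normalised reads in the 29 HT libraries (lowest, median, highest), against 89155, 104464 and 116833 in the 27 WT libraries. The ranges overlapped, and 23 of 29 HT libraries lay under the WT mean. The log2 difference was -0.11 ± 0.0306 (limma, adjusted p = 0.182). Aldh1l1 had 1453, 1783 and 2148 in HT libraries, against 1594, 1859 and 2108 in WT libraries (-0.08 ± 0.0245, limma, adjusted p = 0.232).

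The other members named for this comparison also missed the threshold. Gfap had 2249, 3470.2 and 4549.7 normalised reads in HT libraries, against 3020.5, 3587 and 4855 in WT libraries (-0.08 ± 0.0555, limma, adjusted p = 0.775). Aqp4 had 2213, 3505 and 4193 in HT libraries, against 2912, 3665 and 4851.5 in WT libraries (-0.11 ± 0.0514, adjusted p = 0.572). The ranges of both overlapped, with lows that belonged to HT libraries. Slc1a3 differed by -0.01 (95% interval -0.06 to 0.05) and Gja1 by -0.03 (interval -0.08 to 0.02).

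Split by treatment, the genotype comparison called 0 members each under vehicle (0.00562% of all genes), fluoxetine (0.0112%) and lithium (0.0337%) with limma, and 0 with voom, edgeR and DESeq2. The values were below 0 for 17 of 30 members under vehicle (median -0.01), 29 under fluoxetine (-0.08) and 20 under lithium (-0.01), and the differences between these were not tested over the list. There were 1, 4 and 4 members at an unadjusted p under 0.05 under vehicle, fluoxetine and lithium. Under vehicle Slc1a2 came nearest (-0.11 ± 0.0524, limma, adjusted p = 0.453) and under fluoxetine Ppp1r3c (-0.17 ± 0.067, adjusted p = 0.9998). Under lithium it was Aldh1l1, with 1453, 1688 and 1849.6 normalised reads in 10 HT lithium libraries, against 1720.5, 1842 and 2108 in 9 WT lithium libraries (-0.16 ± 0.0421, limma, adjusted p = 0.200). All 10 HT values lay under the WT mean, and the ranges overlapped. Without the high-score libraries this was a call (-0.21, adjusted p = 0.0427), with 6 libraries left in each group.

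No member was called between the sexes. For female minus male, limma called 0 of 30 members (0.197% of all genes), with 4 at an unadjusted p under 0.05 and 0 by voom, edgeR or DESeq2. The smallest p was that of Slc7a11 (-0.13 ± 0.0439, adjusted p = 0.515). The interaction of lithium with sex called 0 members and 0% of genes, but 9 members had an unadjusted p under 0.05, and 26 of 30 values were below 0, with a median of -0.11. Over all genes 7.16% had such a p, 51.7% of the values were above 0 and the median was 0.0038. The 9 included S100b (-0.14 ± 0.0581, limma, adjusted p = 0.687) and Mlc1 (-0.13 ± 0.0632, adjusted p = 0.695). S100b averaged 2195 ± 157 normalised reads in lithium females (SD, n = 9) and 2469 ± 221 in vehicle females (n = 10), and in males 2165 ± 115 with lithium (n = 10) and 2219 ± 139 with vehicle (n = 9). The smallest p was that of Acsbg1, an acyl-CoA synthetase (-0.19 ± 0.0645, limma, adjusted p = 0.687). It averaged 4110 ± 180 normalised reads in lithium females (SD, n = 9) and 4365 ± 451 in vehicle females (n = 10). In males the means were 4114 ± 275 with lithium (n = 10) and 3802 ± 306 with vehicle (n = 9). The high vehicle females also enter the fluoxetine comparison, where Acsbg1 again had the smallest p for the interaction (-0.22 ± 0.0654, adjusted p = 0.427). With limma, this and the genotype by sex interaction called 0 members and 0% of all genes, and voom, edgeR and DESeq2 called 0 members. DESeq2 called 10 other genes for fluoxetine by sex. At an unadjusted p under 0.05 were 4 members for fluoxetine by sex and 1 for genotype by sex.

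Further astrocyte lists, chosen by function with earlier results known, were counted for lithium over both genotypes. Of 50 other astrocyte-enriched genes, 2 were higher and 8 lower (20% called, against 16.2% of all genes; median -0.05). The smallest p-values were those of the thiosulfate sulfurtransferase Tst (-0.36 ± 0.0626), the signalling protein Fjx1 (-0.25 ± 0.0513), the NMDA receptor subunit Grin2c (-0.16 ± 0.0351) and the proteoglycan Cspg5 (-0.09 ± 0.0225), with limma adjusted p of 0.00283 or less. Sparcl1, a synapse-promoting secreted protein, rose by 0.09 ± 0.0246 on the log2 scale (adjusted p = 0.00585). Without the high-score libraries 7 of the 50 were called.

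The counts of the next lists stand against 16.2% of all genes called, 9.31% higher and 6.85% lower. RNA came from whole tissue, so the cell type in which a listed gene changed was not tested. Among 17 transcription factors of astrocytes, 3 fell and 1 rose (23.5%). The Notch target Hes5 differed by -0.35 ± 0.0777, the inhibitor of differentiation Id3 by -0.27 ± 0.0556 and the nuclear receptor Rorb by -0.19 ± 0.0396, while Gli2 of the hedgehog pathway was at 0.15 ± 0.0538 (limma, adjusted p of 0.0475 or less). Of 30 tested genes known from reactive astrocytes, 4 fell and 1 rose (16.7%, near the share of all genes). The one that rose was the protease inhibitor Serpina3n (0.16 ± 0.0301, adjusted p = 0.000173). Psmb8 of the immunoproteasome (-0.32), the matrix protein Fbln5 (-0.31), the membrane protein Tm4sf1 (-0.20) and the proteoglycan Srgn (-0.13) fell. Without the high-score libraries 1 of these 30 was called. Lcn2, a marker of strong reactivity, was at 0 reads in at least 1 library.

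Of 15 genes by which astrocytes shape or engulf synapses, 20% were called. The phagocytic receptor Mertk (0.21 ± 0.0468) and the glypican Gpc4 (0.15 ± 0.0249) rose. The thrombospondin Thbs1 fell (-0.37 ± 0.0904), and the limma adjusted p was 0.00348 or less for each. Sparcl1, also known as hevin, was counted above and is not among these 15. Of 20 glycogen and lactate genes 3 rose and 2 fell (25%). Glycogen synthase Gys1 was at 0.11 ± 0.0236, glycogen phosphorylase Pygm at 0.18 ± 0.0446, the phosphorylase kinase subunit Phka1 at 0.13 ± 0.0417, and Ugp2, which makes the sugar donor of glycogen, at -0.12 ± 0.0322. The count of 5 was 3 without HT lithium male 4, WT lithium female 3 or WT lithium male 5, and 2 without the high-score libraries.

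Genes of oxidative stress, sterol and thyroid hormone handling known in astrocytes had 6 higher and 1 lower of 16. They included Gclc of glutathione synthesis (0.09 ± 0.0165) and haem oxygenase Hmox1 (0.22 ± 0.0443). Slc3a2, a heavy chain that pairs with Slc7a11 among other light chains, rose by 0.08 ± 0.0178 on the log2 scale (limma, adjusted p = 0.00206). Slc7a11 was lower. The gene lower was Slco1c1, a thyroid hormone transporter (-0.15 ± 0.0381), which is also counted among the other astrocyte-enriched genes. Without the high-score libraries 3 of the 16 were called. Of 18 glucocorticoid-induced genes, which include Mertk, 10 rose (median 0.18), led by Tsc22d3 (0.44 ± 0.0755) and Zbtb16 (0.58 ± 0.099), and 10 were called without the high-score libraries too.

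Markers of other cell types moved as well. Microglia markers were lower in 6 of 14 (median -0.12), and their summed level was 14075 ± 1008 in lithium libraries (11664 to 16005), against 15148 ± 1023 in vehicle libraries (13620.3 to 17352). Endothelial and pericyte markers had 7 lower and 1 higher of 16 (median -0.12), with sums of 15638 ± 1374 in lithium (12109.5 to 18366.5) and 17049.7 ± 1526 in vehicle libraries (14426 to 19360.3). Meningeal markers had 6 lower of 12 (median -0.18), with sums of 7907.5 ± 1174 in lithium (5765 to 9404) and 9097 ± 1397 in vehicle libraries (6509 to 11391). None of these markers was at 0 in any library. Their part in the lower S100b, Mlc1 and Slc7a11 was not tested. Examples are P2ry12 of microglia (-0.20 ± 0.0488), the tight junction gene Cldn5 (-0.44 ± 0.0773) and the collagen gene Col3a1 (-0.39 ± 0.0809). The sums of neuron markers were 489115 ± 16769 in lithium and 482523 ± 17212 in vehicle libraries, with 1 of 20 higher. None of 15 oligodendrocyte, 9 precursor, 9 ependymal and 15 striatal markers was called, and 1 of 17 olfactory markers was lower. Other alternatives called up to 2 oligodendrocyte, 2 striatal and 2 olfactory markers, and the neuron count was 1 to 4 over single omissions. Without the high-score libraries 2 microglia, 4 endothelial and 0 meningeal markers were called.

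For the 50 other astrocyte-enriched genes, limma called 0 under fluoxetine over both genotypes, against 0.928% of all genes, and DESeq2 called 1. Of the 50, 36 were below 0 (median -0.02), where 50.8% of all genes were above 0. For genotype over all treatments 39 of the 50 were below 0 (median -0.04), where 50.2% of all genes were above 0. Limma called 1, Slco1c1 (-0.14 ± 0.0314, adjusted p = 0.0467), against 0.152% of all genes. This count was 0 in 35 and 2 in 6 of 56 single omissions. The cell type in which Slco1c1 differed was not tested.

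Several members, among them Slc6a11 and Agt, varied with the olfactory bulb score, in a fit added after the data had been seen. Others that varied widely did not pass that test, such as Slc25a18 (slope 0.05, adjusted p = 0.334) and Cbs (-0.02, adjusted p = 0.622). With both scores beside the 12 group means, 10 of 30 members had a slope on the olfactory score that passed the test, 33.3%, against 26.4% of all genes. Of these, 7 were positive, against 11.5% of all genes, and 3 negative, against 15%. Positive slopes belonged to genes of transport and to Gfap and Agt. Slc6a11, the astrocyte GABA transporter, gained 24.6% for each doubling of the marker level (slope 0.32 ± 0.0188, limma, adjusted p = 4.2e-19). The 2 libraries with the highest score, WT vehicle female 3 and HT lithium female 3, had 10731 and 9876 normalised reads of it. The 3 with the lowest, HT fluoxetine female 1, female 3 and male 1, had 4631, 4649 and 4385.

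Agt gained 26.5% (0.34 ± 0.0533, adjusted p = 2.0e-06), with 307 and 316 normalised reads in the 2 libraries of highest score and 104, 127 and 122 in the 3 of lowest. Gfap gained 11.4%, the bicarbonate cotransporter Slc4a4 10.6%, Aqp4 8.78%, Slc15a2 7.21% and Mlc1 3.50% (limma, adjusted p of 0.00841 or less). Clu, Aldh1l1 and Aldoc changed by -2.96%, -2.89% and -2.65% (adjusted p of 0.0306 or less). S100b had a slope of 0.00 ± 0.0153. These members share libraries and a dissection, so the slopes are not independent of each other. Without the high-score libraries only Slc6a11 kept its call (0.25, adjusted p = 1.7e-08). With these fewer libraries the slopes of Gfap (0.13), Slc4a4 (0.13), Aqp4 (0.11) and Agt (0.24) kept most of their size, while those of Slc15a2 (0.05), Aldh1l1 (-0.02) and Clu (-0.01) were smaller.

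**Figure D4:**
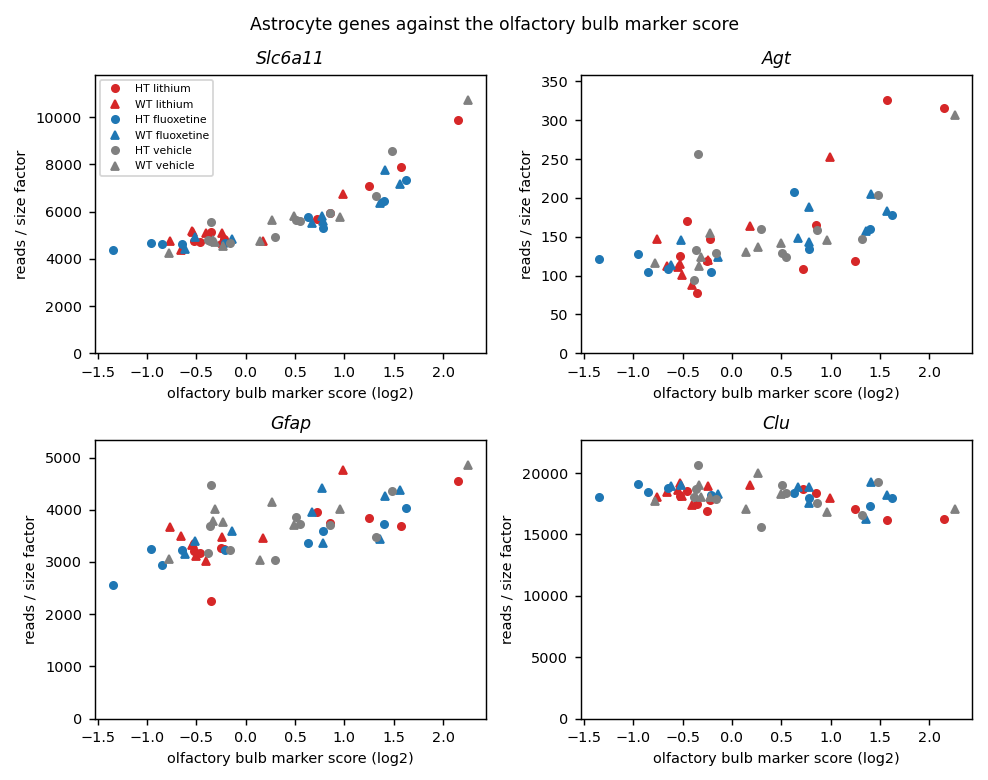
Normalised reads of Slc6a11, Agt, Gfap and Clu against the olfactory bulb marker score (log2, relative to the median library) in 56 libraries. Each point is 1 library, with colour for treatment and shape for genotype. Slc6a11 climbs to 10731 at the highest score, and Clu changes little.

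On the striatal score 1 member passed, Chrdl1 (-0.13 ± 0.0326, limma, adjusted p = 0.00506), against 6.11% of all genes. Its slope was negative, as 2.15% of all genes were called, and 0 members were called positive, where 3.96% of all genes were. The olfactory score averaged 0.12 ± 0.87 in lithium (SD, n = 19), 0.32 ± 0.98 in fluoxetine (n = 18) and 0.33 ± 0.78 in vehicle libraries (n = 19). Within WT it averaged -0.28 ± 0.55 in lithium, 0.59 ± 0.83 in fluoxetine and 0.27 ± 0.90 in vehicle libraries (n = 9 each). Within HT it averaged 0.47 ± 0.97 in lithium (n = 10), 0.05 ± 1.09 in fluoxetine (n = 9) and 0.38 ± 0.69 in vehicle libraries (n = 10). With both scores as covariates, lithium over both genotypes called 5 members. Of the 50 other astrocyte-enriched genes, 11 had a positive and 2 a negative slope on the olfactory score, which is 26%, near the 26.4% of all genes, led by the receptor Lgr6 (0.81 ± 0.0421) and the fatty acid binding protein Fabp7 (0.48 ± 0.0396), a gene of radial glia.

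The promoters of Slc6a11 and Agt are shown as the members with the steepest slopes, chosen after their values had been seen, in the same format. Their positions are chr6:114130991-114131290 on the plus strand and chr8:124569657-124569956 on the minus strand, RefSeq on GRCm38.p6.
Slc6a11: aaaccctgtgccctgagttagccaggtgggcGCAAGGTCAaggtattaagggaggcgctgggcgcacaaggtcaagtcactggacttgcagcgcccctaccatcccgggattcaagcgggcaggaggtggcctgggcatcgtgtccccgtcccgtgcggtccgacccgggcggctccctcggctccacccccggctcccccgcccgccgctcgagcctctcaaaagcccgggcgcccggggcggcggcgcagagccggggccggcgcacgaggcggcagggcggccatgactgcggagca
Agt: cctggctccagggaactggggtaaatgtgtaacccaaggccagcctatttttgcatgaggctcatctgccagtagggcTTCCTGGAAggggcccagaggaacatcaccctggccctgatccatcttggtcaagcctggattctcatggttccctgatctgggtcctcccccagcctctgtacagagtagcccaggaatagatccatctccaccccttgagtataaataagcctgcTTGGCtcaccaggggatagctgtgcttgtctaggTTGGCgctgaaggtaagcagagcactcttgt

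Capitals again mark the motif matches. The Slc6a11 window held GCAAGGTCA, a match on the reverse strand to TGACNNNGC, at -219. The Agt window held the STAT match TTCCTGGAA at -172 and TTGGC at -15 and 20.

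Around their group means the members partly varied together. Over 435 pairs the median correlation across 56 libraries was 0.342, with 118 pairs above 0.5 and 47 below 0. Points share library, depth and dissection, so these are descriptions. The first component held 37.7% of the variance and the second 17.1%. The highest pairs were Slc4a4 with Slc6a11 (0.848), Slc6a11 with Agt (0.788), Aldoc with Fgfr3 (0.785), Gfap with Aqp4 (0.771) and Gja1 with Mlc1 (0.770). The lowest was Slc6a11 with Clu (-0.371). Slc6a11, Slc4a4, Agt, Gfap, Aqp4 and Slc15a2, the 6 members with the largest slopes on the olfactory score, correlated with each other at 0.410 to 0.848. Aldoc, Fgfr3, Hepacam, Clu and Ntsr2 did so at 0.566 to 0.785. Among the members called under lithium, Mlc1 correlated best with Gja1, S100b with Ndrg2 (0.751), Slc7a11 with Aqp4 (0.642) and Gjb6 with Fgfr3 (0.637).

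**Figure D5:**
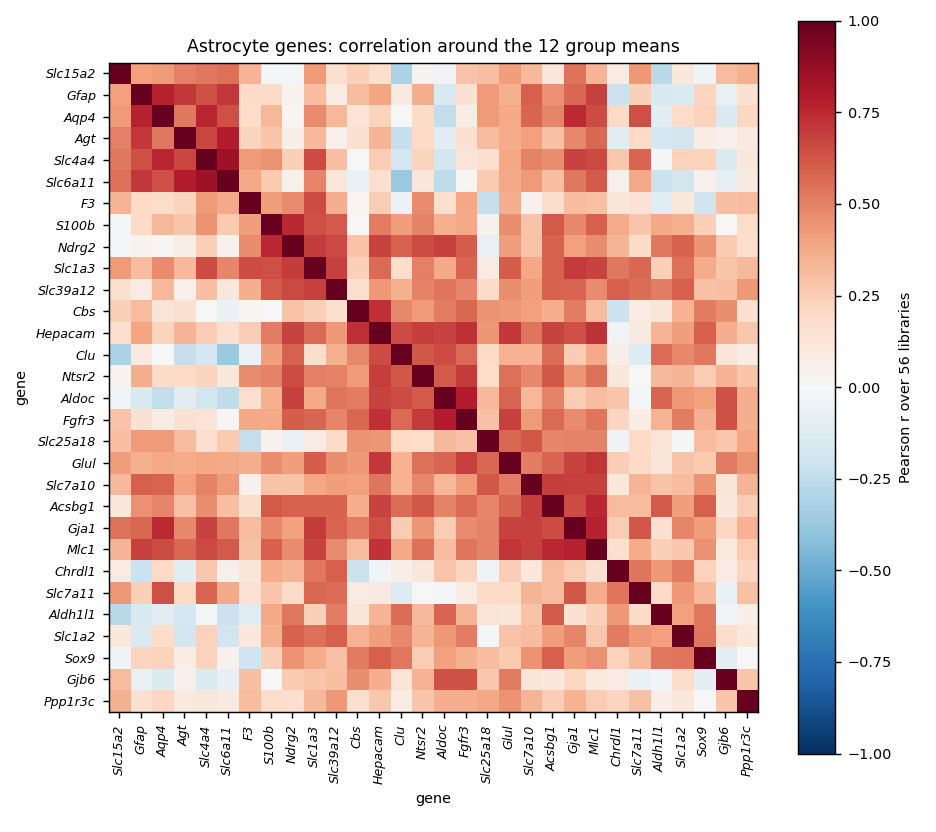
Pearson correlation between the 30 astrocyte genes over 56 libraries after subtraction of the 12 group means, with genes ordered by similarity. Red is positive and blue negative. Slc4a4 and Slc6a11 form the darkest pair (0.848), and Clu is blue against Slc6a11 (-0.371).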

How the data were processed

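The authors deposited 1 table of 18088 genes in 56 libraries. Its values are a signal per gene that the authors made by dividing reads by a size factor for each library, as the values themselves show. Salmon 0.11.2, R 3.6.0, DESeq2 1.19.11 and GRCm38 are named in the submitters' processing notes, without their roles, and the annotation release is not given in the sources used here. Libraries were made with a stranded mRNA kit, per the labels' protocols. Whole reads could be recovered for 100% of the values at a tolerance of 0.01, and gave totals of 24253955 to 36385936 reads per library. In 3 libraries the size factor is near 1, so whole values there show nothing.

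Genes at 10 or more in at least 4 libraries were tested (17778, with 310 left out). Limma 3.58.1 in R 4.3.3 was fitted to log2(value + 1), so that fold changes of low genes are understated, with a mean for each of 12 groups, trend and robust settings. Effects were averaged over the sexes, tests were two-sided, and Benjamini-Hochberg adjustment ran over all genes at a threshold of 0.05. Levels between genes were divided by the union exon length of GENCODE vM21. Alternatives were voom and edgeR 4.0.16 and DESeq2 1.42.0 on the recovered reads, TMM rescaling, pseudocounts of 0.5 and 5, no filter, the compared groups alone, a replicate block, the regional scores as covariates, omission of the high-score libraries and of each library. On the recovered reads edgeR called 2826 genes for lithium over both genotypes, against 2872 by limma. Only the limma fits for lithium over both genotypes and for the slope on the olfactory score were run on simulated counts with known changes. These counts were drawn independently for each gene and library, and the outcome is not given here.

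The members and the other lists were chosen with earlier results of these data known. Named were members called in any comparison, Gfap, Aqp4, Aldh1l1, Slc1a2, Slc1a3 and Gja1, the member of smallest p where none was called, and up to 4 called genes of each other list. Further genes are named for their role or slope and were chosen after their values had been seen.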

Additional observations from a re-analysis of the deposited data

Results flagged for a closer look

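Of 120 groups of 4 or 5 libraries examined for 10 members, 6 held 1 library far from the others of its group, where chance gives about 1 in 20. Gfap was at 4768 normalised reads in WT lithium male 4, and at 3342 to 3666 in the others of that group. Gjb6 was at 1980.4 in WT lithium male 5, with the others at 1274 to 1431. Slc7a11 and Slc1a3 were at 2176 and 20131 in HT fluoxetine male 4, with the others at 1623 to 1718 and at 18544.5 to 18993. Aldh1l1 was at 1594 in WT fluoxetine male 5, under the 1855 to 1950.0 of the others. Slc1a2 was at 110082 in HT fluoxetine female 1, above the 90832 to 92404 of the others. Without WT lithium male 5, Gjb6 was still called for lithium over both genotypes (log2 difference 0.14, limma, adjusted p = 0.0399). HT lithium male 4, with 1979 normalised reads of Gjb6, was then still in the fit. HT lithium male 4 and WT lithium male 5 also held the highest values of Aldoc (23888 and 24001) and Slc25a18 (1808 and 1809).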

How the results depend on the processing

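For lithium over both genotypes, the number of members called was 4 to 7 when single libraries were left out, with 7 without WT lithium male 4, and 2 to 6 under the other alternatives, with 2 without the high-score libraries. S100b, Mlc1, Slc7a11 and Gjb6 kept their direction and their call under every single omission. For Gjb6, each omission left HT lithium male 4 (1979 normalised reads) or WT lithium male 5 (1980.4), its highest libraries, in the fit. Leaving out both was not tested. For lithium in HT the count of 1 became 0 with only the groups compared or without the high-score libraries, 3 with the scores as covariates, and 0 to 3 over single omissions. For lithium in WT it was 1 with only the groups compared and 0 to 1 over single omissions. Genotype under lithium gave 1 without the high-score libraries. Every other comparison between groups gave 0 members under all alternatives and omissions. The slope on the olfactory score was called in 9 to 12 members over single omissions and in 1 without the high-score libraries. The slope on the striatal score was called in 2 with DESeq2, in 0 without the high-score libraries, and in 1 to 2 over single omissions, with 2 without HT fluoxetine male 5, HT lithium male 2, HT lithium male 4, HT lithium male 5, HT vehicle female 1, HT vehicle male 3, HT vehicle male 5 or WT lithium male 2. Slc1a3 changed sign for lithium without the high-score libraries (0.0086), and for genotype without HT vehicle female 5 (0.0024) or WT fluoxetine male 1 (0.0013), within a range of -0.0199 to 0.0024 over single omissions. It was called in none of these. Leaving out the high-score libraries also leaves fewer samples. Otherwise the cause was not tested.

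The replicate numbers showed no sign of pairing the samples. Libraries of the same number correlated at a mean of -0.0020 around their group means and those of different numbers at 0.0005. In WT fluoxetine females and WT lithium females some replicate numbers differ from those in the library names. Litters are not labelled, so pairing by litter was not tested. With the replicate block, lithium in HT called 2 members, and no other comparison moved by more than 1.5 times.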

Other observations

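Under fluoxetine over both genotypes, 7 of 18 glucocorticoid-induced genes were higher, against 0.928% of all genes called, led by Zbtb16 (0.45 ± 0.1) and Klf9 (0.15 ± 0.0348), with limma adjusted p of 0.0201 or less. The comparison shares its vehicle libraries with lithium. The count was 4 with TMM, with voom or with only the groups compared and 0 without the high-score libraries. Over 56 single omissions it was 1 to 9, at 4 in 24 of them and at 7 in 7, and was 1 without WT vehicle male 4. The summed level of the list was 24372 ± 2751 normalised reads in lithium (SD, n = 19), 23112 ± 2040.0 in fluoxetine (n = 18) and 21180 ± 1681 in vehicle libraries (n = 19). Between the genotypes, the pericyte potassium channel subunit Abcc9 was lower in HT (-0.22 ± 0.0464, limma, adjusted p = 0.0152).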
